A study of Mus musculus with 8 samples.

Results

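The 10 immediate early genes Fos, Fosb, Jun, Junb, Jund, Egr1, Atf3, Ier2, Dusp1 and Zfp36 were followed through ribosome-bound RNA of mouse lung endothelium. They were taken by symbol from the 23238 symbols of the count tables, and each of the 10 had a row with at least 1 count. The libraries of interest were 4 from mice with Cdh5-CreERT2, Sox17fl/fl and RPL22tm1.1Psam, in which Sox17, the gene of an arterial endothelial transcription factor, was deleted in adult endothelium before 3 weeks of hypoxia. The controls were 4 libraries from mice with Cdh5-CreERT2 and RPL22tm1.1Psam alone, kept for 3 weeks in room air. All mice were C57BL/6J, were given tamoxifen (2 mg a day, 5 days) when 8 weeks old, and the exposure began at 10 weeks. Cdh5-CreERT2 is a tamoxifen-inducible recombinase driven by an endothelial promoter, and where it acts the RPL22 allele tags ribosomes for pulldown from whole lung. Genotype and oxygen changed together, so their effects cannot be told apart.

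Immediate early genes are switched on by existing factors within minutes of a stimulus such as growth factors, flow or stress, without new protein synthesis. FOS and JUN proteins pair through leucine zippers into the AP-1 transcription factor, and EGR1 is a zinc finger activator induced by the same mitogen-activated protein (MAP) kinase signals. DUSP1, which dephosphorylates MAP kinases, and ZFP36 (tristetraprolin), which binds AU-rich elements in 3′ untranslated regions (UTRs) and speeds RNA decay, are feedback members of the same response. Most of these RNAs are short-lived, and in endothelium several are known to respond to shear stress.

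Library totals were 7000313 to 12913304 counts in Sox17-deleted hypoxic libraries and 10567561 to 11884614 counts in control normoxic libraries. Levels are given as CPM, the counts scaled to the library total. Libraries came from a QuantSeq kit, which tags the 3′ end of each transcript about once whatever its length, so levels of different genes were compared without division by length. A count of 0 is set apart from 3 counts at most, which corresponded to 0.232 to 0.429 CPM. Sox17 had 473, 31, 6 and 41 counts in Sox17-deleted hypoxic libraries 1 to 4, against 3072, 2591, 2442 and 2442 counts in control normoxic libraries 1 to 4. Genes with at least 1 count numbered 8019 to 8708 in Sox17-deleted hypoxic libraries and 9821 to 10429 in control normoxic libraries, without overlap (p = 0.0286 by a two-sided exact permutation test, the lowest value a 4 by 4 design can reach). Gapdh, an abundant housekeeping transcript in most tissues, had only 17.3 to 26.7 CPM in Sox17-deleted hypoxic libraries and 6.72 to 16.5 CPM in control normoxic libraries, higher in the Sox17-deleted hypoxic libraries without overlap but low in both groups, so a low count here does not by itself show low expression.

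The summed level of 10 pan-endothelial markers was 7868 to 12381 CPM in Sox17-deleted hypoxic libraries and 11484 to 12357 CPM in control normoxic libraries. Alveolar type 2 markers, 7 of 9 of them higher by group mean, summed to 2044 to 3964 CPM in Sox17-deleted hypoxic libraries against 962 to 1284 CPM in control normoxic libraries. Club and ciliated markers (4 of 4 higher) summed to 2518 to 5602 CPM against 1275 to 2324 CPM in the controls. Fibroblast markers (4 of 8 higher) summed to 724 to 8772 CPM against 428 to 689 CPM, with Tcf21 at 0 in all 4 Sox17-deleted hypoxic libraries. Smooth muscle and pericyte markers (3 of 6 higher, Cspg4 at 0 in all 4 Sox17-deleted hypoxic libraries and Cnn1 in all 4 controls) summed to 27.9 to 544 CPM against 37.1 to 118 CPM, macrophage and monocyte markers (6 of 7 higher, Adgre1 at 0 in all 8 libraries and Siglecf in all 4 controls) to 14.9 to 192 CPM against 22.0 to 49.6 CPM, and neutrophil markers (3 of 4 higher, Csf3r at 0 in all 4 Sox17-deleted hypoxic libraries) to 29.004 to 413 CPM against 51.5 to 124 CPM. Lymphocyte markers did not exceed 0.269 CPM in Sox17-deleted hypoxic libraries or 11.4 CPM in control normoxic libraries, and Cd3e, Cd3d, Ms4a1 and Nkg7 were at 0 in all 4 Sox17-deleted hypoxic ones. Immediate early genes are not restricted to endothelium, and the part of these other cells in their levels was not tested.

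Most transcripts of this set carry a sequence motif that one of its own products is known to bind. ZFP36 prefers the heptamer TATTTAT, written as DNA, and the motif was searched on the transcript strand in the longest annotated 3′ UTR of each gene (GENCODE M21, GRCm38). It was present in 7 of the 10 genes, against 28.2% of 19490 genes with an annotated 3′ UTR and a row in the tables, and 27.9% of the 9278 genes whose 3′ UTR was as long as those of the 10 (485 to 2302 bases). Dusp1 and Zfp36 each held 3 copies and Fos held 2. Junb, Egr1 and Ier2 held none. The first heptamer of each transcript is shown in capitals within 30 bases, to let the sites be compared.
Fos (chr12:85477103-85477132, plus strand): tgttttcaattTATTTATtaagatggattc
Fosb (chr7:19303325-19303354, minus strand): ccacccccagcTATTTATccctttcctggt
Jun (chr4:95049078-95049107, minus strand): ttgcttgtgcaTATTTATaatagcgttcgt
Jund (chr8:70700359-70700388, plus strand): cgattccgcccTATTTATgtttctactcgg
Atf3 (chr1:191170337-191170366, minus strand): aaaatattactTATTTATcccagtattcct
Dusp1 (chr17:26506158-26506187, minus strand): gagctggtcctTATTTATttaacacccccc
Zfp36 (chr7:28376965-28376994, minus strand): agtgggcccttTATTTATgacgactttatt
The flanks differ from gene to gene while the heptamer is the same, and none of these matches shows that ZFP36 was bound.

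Upstream of the start sites, RefSeq sequence (GRCm38.p6) was available for 8 of the 10 genes, and 250 bases were searched on both strands. The promoters of Fos, Jun and Dusp1 are shown because Jun and Fos were the most and the least counted of the 10 genes and Dusp1 varied most among the 3 with group means above 100 CPM. Capitals mark TGACGT, the core of the cAMP response element, TGACATCA, an AP-1-like site to which JUN dimers are known to bind in the Jun promoter, and TATAAA.
Fos (chr12:85473640-85473889, plus strand): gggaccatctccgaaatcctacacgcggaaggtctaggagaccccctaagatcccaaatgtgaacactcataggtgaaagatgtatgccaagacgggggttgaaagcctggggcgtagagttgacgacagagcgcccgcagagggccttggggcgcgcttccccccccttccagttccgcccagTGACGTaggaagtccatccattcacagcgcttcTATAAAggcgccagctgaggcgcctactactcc
Jun (chr4:95052223-95052472, minus strand): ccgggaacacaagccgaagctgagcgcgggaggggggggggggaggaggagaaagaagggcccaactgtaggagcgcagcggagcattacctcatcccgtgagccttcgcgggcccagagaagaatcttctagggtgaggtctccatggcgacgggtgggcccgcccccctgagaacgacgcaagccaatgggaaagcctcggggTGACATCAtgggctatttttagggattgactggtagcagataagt
Dusp1 (chr17:26508473-26508722, minus strand): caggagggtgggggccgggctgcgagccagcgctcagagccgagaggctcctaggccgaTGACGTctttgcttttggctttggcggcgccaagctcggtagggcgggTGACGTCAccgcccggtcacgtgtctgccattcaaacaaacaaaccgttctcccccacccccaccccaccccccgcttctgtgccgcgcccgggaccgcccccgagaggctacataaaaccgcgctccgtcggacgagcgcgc
TGACGT was found at position −66 of Fos and in the promoters of Atf3 and Dusp1, and 6.47% of 32851 promoters of the same length hold it. Dusp1 held the full palindrome TGACGTCA at position −143, where the core reads on both strands, plus a separate core further upstream. The palindrome is in 1.55% of promoters. Jun held TGACATCA at position −45, which 2.93% of promoters hold, and Fos held TATAAA at position −33, which 12.4% hold. The AP-1 site TGACTCA, in 4.46% of all promoters, was in none of the 8 windows. A match to the short base pattern of the serum response element, in 1.47% of promoters, was in the Zfp36 window alone. Sequence further upstream than 250 bases and the promoters of Egr1 and Ier2 were not searched. The absence of a match in a window therefore does not show that a gene lacks the element. The RefSeq start of Jund lies 1210 bases from the nearest coding start in GENCODE, so its window was another region.

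Levels of the 10 genes spread over more than 3 orders of magnitude. Jun stood first in 7 of 8 libraries, and Jund stood first in Sox17-deleted hypoxic library 3. In those 7 libraries Jund and Dusp1 took the next places. Over all 8, Junb, Egr1 and Ier2 lay between 0 and 189 CPM, and Zfp36 reached at most 25.7 CPM. Fos, Fosb and Atf3 were at or close to 0 in most libraries. The 10 genes together took 0.279%, 0.201%, 0.133% and 0.185% of the counts in Sox17-deleted hypoxic libraries 1 to 4, and 0.204%, 0.198%, 0.317% and 0.297% in control normoxic libraries 1 to 4. These sums overlap between the groups.

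**Figure D1:**
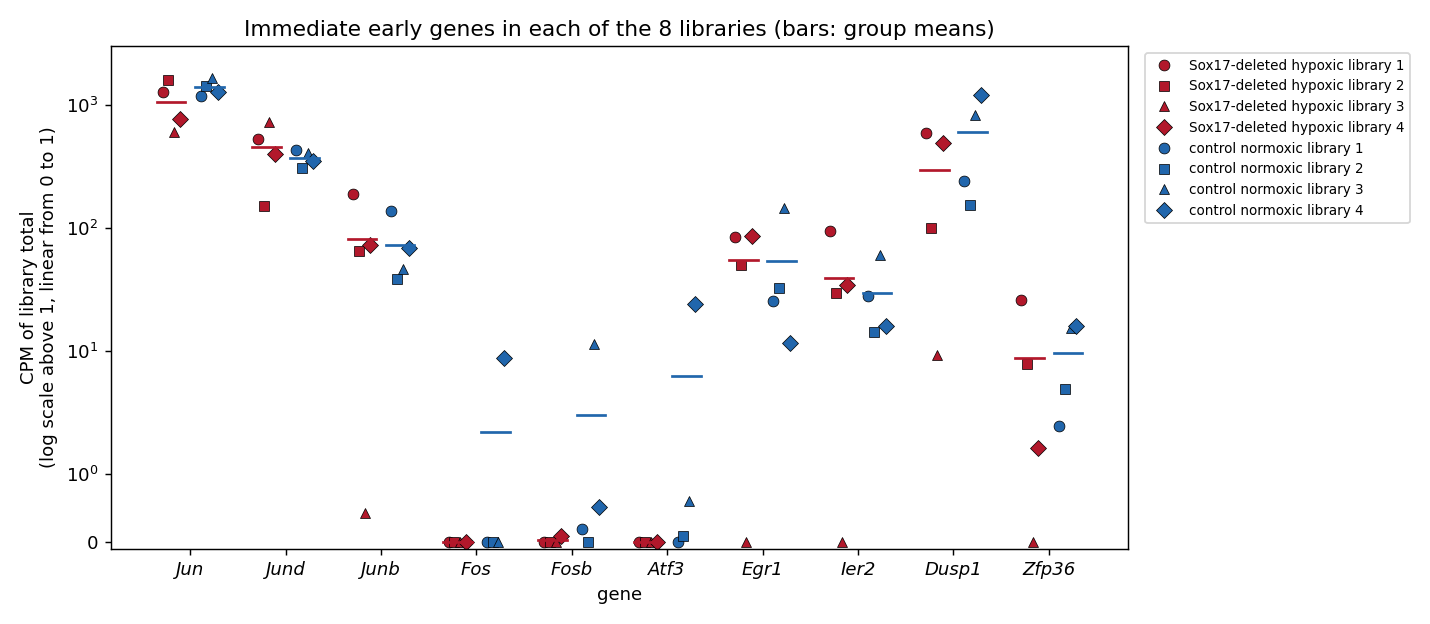
Level of each immediate early gene (x axis) as CPM of the library total (y axis, logarithmic above 1 and linear from 0 to 1), with 4 Sox17-deleted hypoxic libraries in red, left, and 4 control normoxic libraries in blue, right. Symbols give the library number and bars the group means. The groups overlap for every gene, and the red triangle (library 3) is at or near 0 for Junb, Egr1, Ier2 and Zfp36.

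Jun (chromosome 4, 95049034 to 95052222, minus strand, GRCm38, a single exon) encodes c-JUN, the strongest transactivator of the JUN proteins. It had 1277, 1605, 597 and 767 CPM in Sox17-deleted hypoxic libraries 1 to 4, against 1179, 1436, 1661 and 1277 CPM in control normoxic libraries 1 to 4. Libraries 3 and 4 of the Sox17-deleted hypoxic group lay below all controls, while libraries 1 and 2 lay within the control range. The group means were 1061 ± 463 CPM and 1388 ± 211 CPM (SD, n = 4 each). The log2 fold change was −0.39 (SE 0.33, 95% interval −1.09 to 0.32), with an edgeR quasi-likelihood adjusted p of 1.00 over all genes.

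Jund (chromosome 8, 70698949 to 70700616, plus strand, a single exon) encodes the JUN protein that is least inducible in most cells. It had 528, 152, 728 and 397 CPM in Sox17-deleted hypoxic libraries 1 to 4, and 427, 307, 407 and 351 CPM in control normoxic libraries 1 to 4. The Sox17-deleted hypoxic libraries lay on both sides of the control range, library 2 below it and libraries 1 and 3 above. Group means were 451 ± 242 CPM and 373 ± 54.4 CPM (SD, n = 4 each), for a log2 fold change of 0.34 (SE 0.44, 95% interval −0.62 to 1.29, edgeR adjusted p = 1.00). Without Sox17-deleted hypoxic library 3 the log2 fold change was −0.069.

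Junb (chromosome 8, 84974484 to 84978718, minus strand) encodes a JUN protein that can restrain c-JUN. It had 189, 64.4, 0.429 and 72.2 CPM in Sox17-deleted hypoxic libraries 1 to 4, and 137, 38.1, 46.4 and 68.7 CPM in control normoxic libraries 1 to 4. Library 3 held 3 counts, whereas the other 3 Sox17-deleted hypoxic libraries spanned a range like that of the controls. The log2 fold change was 0.15 (SE 1.11, edgeR adjusted p = 1.00), and its sign turned without Sox17-deleted hypoxic library 1 (−0.74). The annotated gene overlaps Prdx2 on the opposite strand by 351 bases, and its coding transcript overlaps Prdx2 by 0 bases.

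Within the JUN family, the mix of paralogs ranged more widely in the Sox17-deleted hypoxic libraries. Jun made up 64.0%, 88.1%, 45.0% and 62.1% of the Jun, Junb and Jund counts in Sox17-deleted hypoxic libraries 1 to 4, against 67.7%, 80.6%, 78.6% and 75.3% in control normoxic libraries 1 to 4. Jund made up 26.5%, 8.34%, 54.9% and 32.1%, against 24.5%, 17.2%, 19.2% and 20.7%. The Jun to Jund ratio was thus 2.42, 10.6, 0.820 and 1.93 in Sox17-deleted hypoxic libraries and 2.76, 4.68, 4.08 and 3.64 in control normoxic libraries. For 3 of the 4 Sox17-deleted hypoxic libraries it was below every control, and for library 2 it was above every control. The coefficient of variation of Jun was 43.7% in Sox17-deleted hypoxic libraries and 15.2% in controls, equal or close to the medians of 43.7% and 15.5% over 105 tested genes of 1000 to 3000 CPM, so the wider spread was not peculiar to Jun. Jund varied by 53.6% and 14.6%, beside medians of 40.3% and 20.9% over 475 genes of 300 to 1000 CPM.

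**Figure D2:**
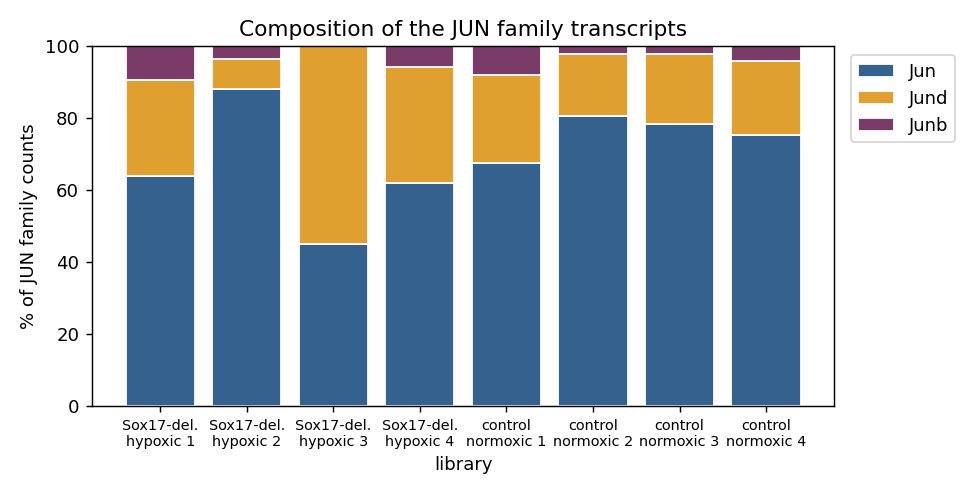
Share of Jun, Jund and Junb in the counts of the JUN family (y axis, %) for each library (x axis), with the Sox17-deleted hypoxic libraries left. Jun takes 67.7% to 80.6% in the control normoxic libraries and 45.0% to 88.1% in the Sox17-deleted hypoxic libraries.

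The FOS partners of these JUN transcripts were almost not counted. Fos (chromosome 12, 85473890 to 85477273, plus strand), the prototype immediate early gene, had 0 counts in all 4 Sox17-deleted hypoxic libraries and 0, 0, 0 and 103 counts in control normoxic libraries 1 to 4. A single library, control 4, thus held every Fos count, at 8.67 CPM. Fosb (chromosome 7, 19302696 to 19310051, minus strand), a paralog with a longer-lived splice form, had 0, 0, 0 and 1 counts in Sox17-deleted hypoxic libraries 1 to 4 and 2, 0, 132 and 6 counts in control normoxic libraries 1 to 4. Here control 3 held nearly all counts, at 11.3 CPM, so Fos and Fosb were not high in the same library.

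Atf3 (chromosome 1, 191170296 to 191218039, minus strand), a stress-induced factor that pairs with JUN proteins and mostly represses, had 0 counts in all 4 Sox17-deleted hypoxic libraries and 0, 1, 7 and 287 counts in control normoxic libraries 1 to 4. The same control library 4 held the Fos counts and most of the Atf3 counts, at 24.1 CPM for Atf3. None of Fos, Fosb and Atf3 passed the expression filter. Without the filter their edgeR p values were 0.0520, 0.120 and 0.0487, with adjusted p of 0.360, 0.550 and 0.360. That fit gave 1605 of 14071 genes an unadjusted p under 0.05. Fos and Atf3, at 0 in all 4 Sox17-deleted hypoxic libraries, could only come out lower. The fitted fold changes rest on the prior count and are not given. With control library 4 set aside, Fos is at 0 in all 7 remaining libraries, and the Sox17-deleted hypoxic group cannot be set below the controls.

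The other FOS genes were low as well. Fosl1 had 240 counts in control library 1 and 0 in the other 7 libraries. Fosl2, which encodes FRA-2 and is less transient than Fos, had 0, 11, 1 and 507 counts in Sox17-deleted hypoxic libraries 1 to 4 and 156, 4, 109 and 342 counts in control normoxic libraries 1 to 4. The 4 FOS genes summed to at most 45.5 CPM in any Sox17-deleted hypoxic library and 37.9 CPM in any control normoxic library, whereas the 3 JUN genes summed to 1236 to 1994 CPM and 1696 to 2114 CPM. These libraries count RNA on ribosomes, and protein levels were not measured.

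Egr1, a zinc finger activator of growth and vascular injury genes, had 84.7, 49.96, 0 and 86.0 CPM in Sox17-deleted hypoxic libraries 1 to 4, against 25.5, 32.3, 144 and 11.6 CPM in control normoxic libraries 1 to 4. Libraries 1, 2 and 4 of the Sox17-deleted hypoxic group were above 3 of the 4 controls, but control 3 was the highest of all and library 3 had no count. The log2 fold change was 0.06 (SE 1.44, 95% interval −3.03 to 3.15, edgeR adjusted p = 1.00). It was 1.201 without control library 3 and −0.28 without control library 4.

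Ier2 (chromosome 8, 84661331 to 84662852, minus strand, a single exon), a small nuclear protein gene induced with Fos and Egr1, had 93.9, 29.2, 0 and 34.1 CPM in Sox17-deleted hypoxic libraries 1 to 4, against 28.0, 14.1, 59.7 and 15.9 CPM in control normoxic libraries 1 to 4. Its highest library was Sox17-deleted hypoxic library 1, and the groups overlapped. The log2 fold change of 0.43 (SE 1.66, 95% interval −3.13 to 3.99, edgeR adjusted p = 1.00) turned to −0.53 without that library. Egr1 and Ier2 were highest in the same control, library 3, and absent from the same Sox17-deleted hypoxic one.

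Among the feedback members, Dusp1 (chromosome 17, 26505590 to 26562128, minus strand) had 587, 100.3, 9.14 and 489 CPM in Sox17-deleted hypoxic libraries 1 to 4, against 239, 153, 822 and 1200.2 CPM in control normoxic libraries 1 to 4. The highest Sox17-deleted hypoxic library held 64.2 times the level of the lowest, and the highest control 7.87 times that of the lowest. Libraries 2 and 3 of the Sox17-deleted hypoxic group lay below all controls and libraries 1 and 4 within their range. Its coding transcript with the longest annotated 3′ UTR begins at 26508519, and the longer gene model overlaps Ergic1 on the other strand. The promoter window and its positions were counted from the RefSeq start at 26508472, so the end of that window lies within this transcript. Group means were 296 ± 284 CPM and 603 ± 497 CPM (SD, n = 4 each), with a log2 fold change of −1.02 (SE 0.89, 95% interval −2.92 to 0.89, edgeR adjusted p = 1.00). Over 19 alternative settings the change stayed between −1.61 and −0.43, and the adjusted p did not fall below 0.367. In control library 4, which also held the Fos and Atf3 counts, Dusp1 nearly matched Jun, with a Dusp1 to Jun ratio of 0.940.

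Zfp36 (chromosome 7, 28376784 to 28380253, minus strand) had 25.7, 7.83, 0 and 1.61 CPM in Sox17-deleted hypoxic libraries 1 to 4, and 2.46, 4.88, 15.4 and 15.9 CPM in control normoxic libraries 1 to 4. Both groups held low and high libraries. The log2 fold change was −0.11 (SE 2.06, 95% interval −4.53 to 4.31, edgeR adjusted p = 1.00), an interval too wide to read. Its paralog Zfp36l1, which binds the same elements and is known for a role in vascular development, was far more abundant at 163 ± 142 CPM in Sox17-deleted hypoxic libraries and 233 ± 54.0 CPM in control normoxic libraries (SD, n = 4 each).

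Of the 10 genes, 7 passed the expression filter and were tested with all 8282 genes, where edgeR called 0 genes (0%) at an adjusted p under 0.05. An unadjusted p under 0.05 was reached by 424 genes (5.12%) and by none of the 7. The groups did not overlap for 546 genes (6.59%) and for none of the 7. DESeq2 called 155 of the same 8282 genes and limma-voom with quality weights 14, and neither called a member. The median log2 fold change of the 7 was 0.06, with 4 higher and 3 lower, beside −0.01 over all tested genes. The intervals were narrowest for Jun and Jund, while those of Egr1, Ier2 and Zfp36 hold log2 changes of 3 in both directions. These p values rest on how far libraries of a group differ, and nothing says whether that is animal or technical variation. In bulk RNA of this kind, fewer cells with a transcript and less RNA per cell cannot be told apart.

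**Figure D3:**
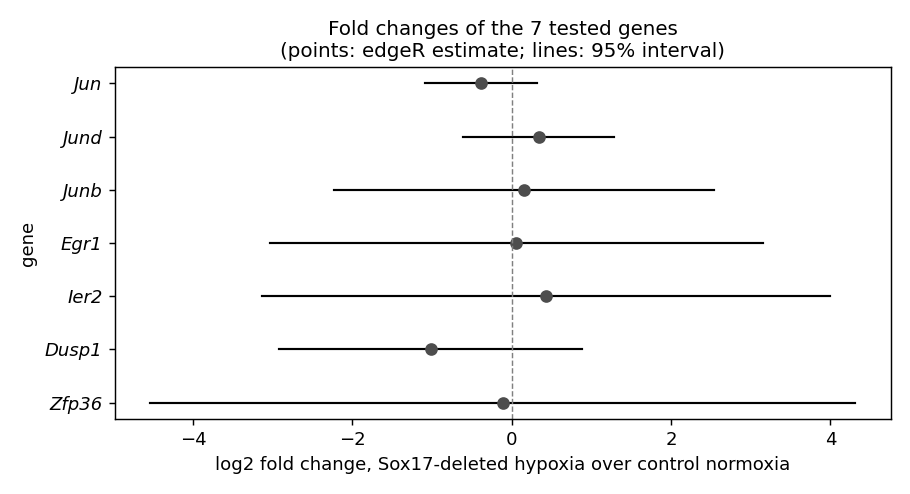
Log2 fold change of Sox17-deleted hypoxia over control normoxia (x axis) for the 7 tested genes (y axis), with points for the edgeR estimates and lines for the 95% intervals over 4 against 4 libraries. All 7 intervals cross 0, from −1.09 to 0.32 for Jun to −4.53 to 4.31 for Zfp36.

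Several members differed more between libraries of 1 group than between the group means. Sox17-deleted hypoxic library 3 had 0 counts for Egr1, Ier2 and Zfp36, 3 for Junb and 64 for Dusp1, yet 4178 for Jun and 5097 for Jund. Set against the mean of the other 7 libraries, Dusp1 was at 0.0178 times and Junb at 0.00487 times, while Jun was at 0.454 times and Jund at 1.98 times. Library 3 was the shallowest of the 8, and many genes of low level were missing from it. Among 3184 genes that averaged 30 to 100 CPM over the remaining 7, the range that holds Junb, Egr1 and Ier2, 25.1% had 3 counts or fewer in library 3. The same share was 16.01%, 19.3% and 14.7% in the other Sox17-deleted hypoxic libraries 1, 2 and 4, and 2.10% to 6.68% in control normoxic libraries. At 10 to 30 CPM, the range of Zfp36, it was 56.9% of 2959 genes. For Dusp1, 1.47% of the 475 genes averaging 300 to 1000 CPM elsewhere had a ratio as low as its own in library 3. Dusp1 lay at the edge of that range in other libraries too, with 1.87% of genes as low in Sox17-deleted hypoxic library 2, 1.05% in control library 2, and 99.4% and 100% at or below its ratio in control libraries 3 and 4. Eef1a1, a translation factor gene that most cells express steadily, was also low in library 3, at 92.1 CPM against 607 to 1269 CPM in the other 7 libraries. The actin gene Actb was instead highest in library 3, at 14697 CPM against 5980 to 9430 CPM in the other 7. Gapdh, at 26.3 CPM, lay within its range elsewhere. This library was singled out after its values were seen, and the part of its depth in the zeros was not tested.

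**Figure D4:**
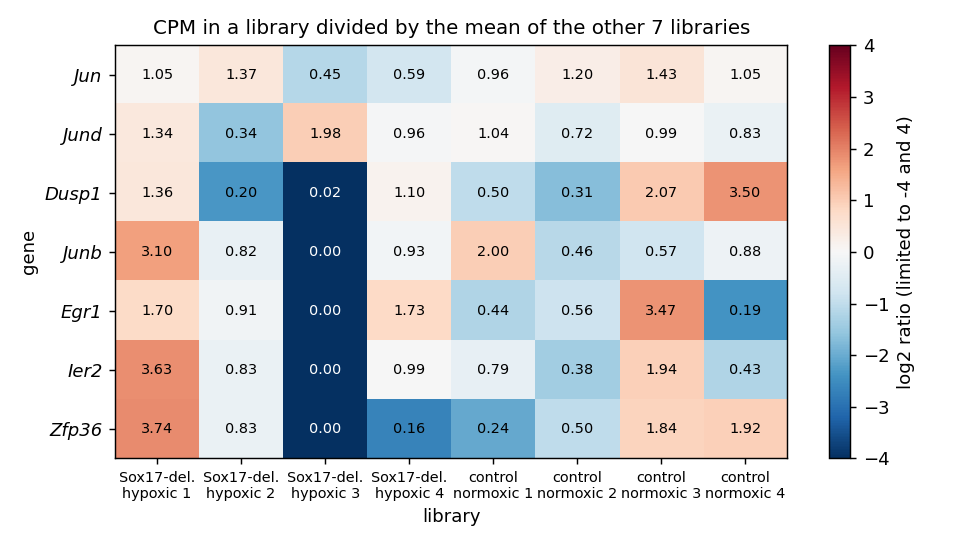
CPM of each gene (rows) in each library (columns, Sox17-deleted hypoxic libraries left) divided by its mean in the other 7 libraries; the printed number is the ratio and the colour its log2, limited to −4 and 4. Sox17-deleted hypoxic library 3 is at 0.02 or below for Dusp1, Junb, Egr1, Ier2 and Zfp36, and at 0.45 for Jun and 1.98 for Jund.

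Without library 3, the Sox17-deleted hypoxic group averaged 73.6 ± 20.5 CPM for Egr1, 52.4 ± 36.0 CPM for Ier2, 109 ± 69.9 CPM for Junb and 392 ± 257 CPM for Dusp1 (SD, n = 3), against control means of 53.3, 29.4, 72.5 and 603 CPM (n = 4). The ranges of Egr1, Ier2 and Junb still overlapped the controls. Library 1, also singled out after its values were seen, was the opposite case. It had the highest Junb, Ier2 and Zfp36 of all 8 libraries, at 3.10, 3.63 and 3.74 times the mean of the others. Among genes of like level elsewhere, 97.1% had a ratio in library 1 at or below that of Junb, and 91.9% at or below that of Ier2. Library 1 also kept the most Sox17 counts of its group. Its neutrophil marker sum of 413 CPM was the highest of all, and the part of these cells was not tested.

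**Figure D5:**
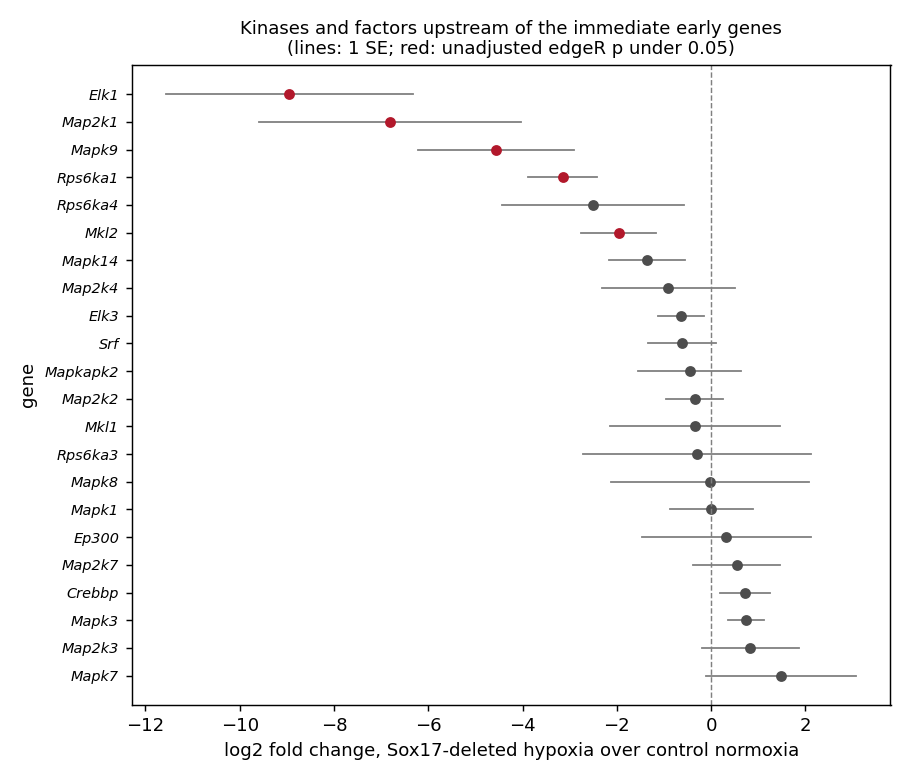
Log2 fold change of Sox17-deleted hypoxia over control normoxia (x axis) for 22 of the 28 tested kinases and factors upstream of immediate early genes (y axis), with lines of 1 SE from edgeR over 4 against 4 libraries. The 5 red points have an unadjusted p under 0.05 and all lie below 0; none passed after adjustment over all genes, and the points of Elk1 and Map2k1, near 0 counts in the Sox17-deleted hypoxic libraries, depend on the prior count of the fit.

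Genes that relay signals to the immediate early promoters were read from a list of 33, of which 28 were tested. None of the 28 passed the adjusted threshold. An unadjusted edgeR p under 0.05 was reached by 5, all lower in Sox17-deleted hypoxic libraries, beside 3.05% of all tested genes that were lower at that level; 11 were higher and 17 lower (median log2 fold change −0.32, against −0.01 over all genes). The 5 are named here after their values were seen. Elk1 and Map2k1 among them passed the expression filter through the control libraries alone, so these could only come out lower. Rps6ka1, the gene of the kinase RSK1 that acts below ERK, was at 18.4 ± 5.92 CPM against 166 ± 88.8 CPM in the controls, without overlap (log2 fold change −3.15, SE 0.73, edgeR adjusted p = 0.346, and 0.00112 to 0.850 over 18 alternatives). Mkl2, which encodes the actin-regulated SRF coactivator MRTF-B, was at 44.8 ± 37.1 CPM against 174 ± 38.6 CPM, also without overlap (−1.96, SE 0.79, adjusted p = 0.795). Mapk9, the gene of the JUN kinase JNK2, had 124, 0, 17 and 96 counts in Sox17-deleted hypoxic libraries and 1444, 4, 2198 and 2074 counts in controls (adjusted p = 0.599).

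Elk1, whose product joins SRF on the serum response element of Fos and Egr1, had 0, 0, 0 and 1 counts in Sox17-deleted hypoxic libraries 1 to 4 and 154, 174, 347 and 108 counts in control normoxic libraries 1 to 4 (edgeR adjusted p = 0.346, and 0.00649 to 0.860 over 18 alternatives). Map2k1, the gene of the ERK kinase MEK1, had 0, 0, 5 and 0 counts against 25, 452, 156 and 401 counts (adjusted p = 0.804). The groups did not overlap for either gene. Over all tested genes without overlap, 135 were higher and 411 lower in the Sox17-deleted hypoxic libraries. Elk1 averaged 8.66 CPM and Map2k1 11.4 CPM over the 8 libraries. In the lowest range examined, genes at 10 to 30 CPM in the other 7 libraries, 47.3% to 56.9% had 3 counts or fewer in a Sox17-deleted hypoxic library and 19.9% to 32.2% in a control normoxic library, and the part of this in the differences was not tested. DESeq2 called Elk1 and Rps6ka1. The number lower at an unadjusted p under 0.05 ran from 0 to 5 over the alternative settings. The 0 was among the 7 genes left by the strictest filter on level, and the number was 3 without Sox17-deleted hypoxic library 2 or without control library 2. Genes of the list were also higher at that level in some settings. They numbered 2 without a low-count filter, and 1 with DESeq2, with pan-endothelial scaling, or without Sox17-deleted hypoxic library 1, 3 or 4. Over those settings 2.57% to 8.10% of all tested genes were lower at an unadjusted p, with 8.10% without Sox17-deleted hypoxic library 1. Abundant genes of the list included 2 with higher group means that did not pass. Mapk3, the gene of ERK1, was at 1018 ± 516 CPM against 624 ± 52.9 CPM (0.74, SE 0.38) and the histone acetyltransferase gene Crebbp at 325 ± 115 CPM against 195 ± 129 CPM, each with an adjusted p of 1.00.

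Relatives of the AP-1 genes gave 0 of 22 tested past the threshold, with 13 higher and 9 lower and a median log2 fold change of 0.08. The most abundant was Cebpd, a C/EBP factor of the acute phase, at 370 ± 297 CPM in Sox17-deleted hypoxic libraries and 551 ± 93.2 CPM in controls. Nfe2l2, the NRF2 gene of the antioxidant response, was at 288 ± 105 CPM and 229 ± 95.9 CPM. Atf4, the effector of the integrated stress response, was at 235 ± 121 CPM and 241 ± 77.2 CPM. Batf had no count in any library.

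Of 8 EGR and NR4A relatives, 5 had a count and 3 were tested. Egr2, Egr3 and Egr4 were at 0 in all 8 libraries, so Egr1 was the only EGR gene detected at this depth. Of 3 tested, 1 was higher and 2 lower, and none passed. The EGR corepressor genes Nab1 and Nab2 were at 60.3 ± 44.6 and 23.5 ± 24.3 CPM in Sox17-deleted hypoxic libraries, against 109 ± 55.0 and 56.4 ± 39.8 CPM in controls. The orphan receptor gene Nr4a1 had 1468, 135, 2 and 150 counts in Sox17-deleted hypoxic libraries 1 to 4 and 160, 257, 146 and 53 counts in control normoxic libraries 1 to 4. Nr4a1 was thus highest in library 1 and nearly absent in library 3, as Junb, Ier2 and Zfp36 were.

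Feedback and decay relatives split evenly, 10 higher and 10 lower of 20 tested (median −0.02), and none passed. Nfkbia, whose product IκBα holds NF-κB in the cytoplasm, was the most abundant at 3198 ± 1061 CPM in Sox17-deleted hypoxic libraries and 3165 ± 504 CPM in controls. Dusp3 was at 641 ± 322 CPM and 597 ± 88.7 CPM, so both were at nearly equal means. Of other genes with immediate early or stress behaviour, 0 of 36 tested passed, with 14 higher and 22 lower (median −0.11). Klf2, the flow-induced factor of quiescent endothelium, was at 1505 ± 847 CPM and 2620 ± 218 CPM (−0.80, SE 0.38, edgeR adjusted p = 1.00). Klf4 was at 1694 ± 903 CPM and 1957 ± 248 CPM, and the cell cycle inhibitor gene Cdkn1a at 1378 ± 721 CPM and 1434 ± 369 CPM. Ptgs2, Gadd45a, Arc, Ccl2 and Il6 had no count in any library.

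The genes whose profile lay nearest to that of Fos, by the mean absolute gap between centred log2(CPM + 1) values over the 8 libraries, were Smurf1, Cd63, Frmd6, Hsd17b11 and Pbrm1 among 8275 genes, with gaps of 0.51 to 0.58. Fos was at 0 in 7 of the 8 libraries, which limits what this measure can tell apart. Among the 10 members the smallest gap was between Fos and Atf3 (0.38), followed by Junb and Ier2 (0.57) and Egr1 and Ier2 (0.64). Genes outside the 10 lay nearer to Egr1 than Ier2 did, with Rnf216 at 0.36 and Tdrd7 at 0.39. Fos and Atf3 had 0 to 7 counts outside control library 4. Junb, Egr1 and Ier2 had 3, 0 and 0 counts in Sox17-deleted hypoxic library 3. The part of these shared low counts in the small gaps was not tested. For Dusp1, a choice made after its values were seen, the nearest genes were Dicer1 and Igfbp5, with gaps of 0.49 and 0.52.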

How the data were processed

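Ribosome-bound RNA was measured in 8 libraries, grouped by their titles. The authors deposited raw counts, 1 whole number per symbol, made with Bowtie2, bedtools and build mm10 per the submitters' processing notes. Versions and the handling of strand, duplicates and multiple matches are not given in the sources used here. Reads of Jun, Jund and Zfp36 therefore cannot be told from their antisense neighbours. The same holds where the gene models of Junb, Dusp1 and Atf3 overlap genes of the opposite strand. Rows of 44 repeated symbols were summed. The 2 groups were compared by edgeR 4.0.16 under R 4.3.3 (TMM, filterByExpr, group alone, quasi-likelihood F test, Benjamini-Hochberg over all genes, adjusted p under 0.05); DESeq2 1.42.0, limma 3.58.1, other scalings and filters, and leaving out each library were alternatives. The edgeR test alone was tried on simulated data, and its rate of recovery is not given here. Intervals and floors cover counting error or the spread between libraries. Whether libraries are separate animals is not given, and the deposited names of Sox17-deleted hypoxic libraries 2, 3 and 4 share a stem. Chi-square per gene was at least 191 for every pair of libraries, so none is a repeat deposit of the same counts, which does not show separate animals. Same-numbered libraries were not paired (correlations of deviations −0.02 to 0.02). The members and lists were chosen with earlier results of these data known. Named genes were the 10 members, the 3 most abundant tested genes of each wider list, and the 5 nearest to Fos; 1 gene that this rule picks is not reported here. Fosl1, Fosl2, Eef1a1, Actb, Gapdh and the 5 upstream genes at an unadjusted p under 0.05 were named after their values were seen. So were the genes near Dusp1 and Egr1 and the genes listed at 0.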

Additional observations from a re-analysis of the deposited data

Results flagged for a closer look

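In groups of 4 libraries, a value was set apart when its gap to the nearest other passed Dixon's 95% limit. Of 22 groups of values examined, 5 were picked out. The limit is set for chance to pick about 1 in 20, but where all other libraries are at 0 any count passes it. That held for Fos in the controls and for Fosb in the Sox17-deleted hypoxic group. The 5 therefore cannot be set against that rate. All but 1 were single high control libraries. Fos reached 8.67 CPM in control library 4 and 0 in the other controls, and Atf3 reached 24.1 CPM in the same library. Fosb reached 11.3 CPM and Egr1 144 CPM in control library 3. In the Sox17-deleted hypoxic group, Fosb was picked out in library 4 at 0.0896 CPM, which is 1 count against 0 in the others. The zeros of Sox17-deleted hypoxic library 3 were not picked out, since the spread of the other 3 libraries is wide.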

How the results depend on the processing

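No member was called under any of the 19 alternatives. Genes called over the whole table numbered 0 in the main edgeR test, 17 without a low-count filter, 4 under the strictest filter on mean level, 155 with DESeq2, 14 with limma-voom, 1 with Sox17-deleted hypoxic libraries 2, 3 and 4 summed as 1 sample, and 0 to 5 with a library left out (5 without Sox17-deleted hypoxic library 1). Jun and Dusp1 kept their sign in all alternatives. Of 129 member results, 108 kept sign and side of the threshold and 21 changed sign. Upper-quartile factors gave −0.0016 for Egr1. Limma-voom, which moved the median of all genes to −0.70, gave −0.29 for Egr1, −0.70 for Ier2, −0.45 for Junb and −0.030 for Jund. The replicate block, which moved that median to −0.57, gave −0.58 for Junb and changed no call; the libraries share only a number, and 2 of 4 Sox17-deleted hypoxic libraries correlated best with their own number. Scaling to pan-endothelial markers moved it to 0.16. The summed sample gave 0.63 for Zfp36. With a library left out, log2 fold changes ran from −0.28 to 1.201 for Egr1, −0.53 to 0.99 for Ier2, −0.74 to 0.69 for Junb, −0.069 to 0.68 for Jund and −1.68 to 0.30 for Zfp36. The causes were not tested. TMM-scaled CPM moved no group mean of a member by more than its SD. A count of 0 sets a limit of 3 counts, 0.232 to 0.429 CPM, for counting error alone.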
